A study of Mus musculus with 36 samples.

Results

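Foxp3, Ikzf2, Ikzf4, Nt5e and Ctla4 are 5 genes that mark regulatory T (Treg) cells, the CD4 T cells that restrain other immune cells. Their expression was followed in CD4 T cells with Trim28 deleted (KO) and in those of wild-type (WT) littermates. TRIM28 is a nuclear protein that recruits heterochromatin-forming enzymes to DNA. Each gene was read from array probe sets annotated with its symbol and no other. All 5 had 1 such probe set, out of 22180 genes on the array with a probe set of their own. Naive CD4 T cells of both genotypes were sorted by flow cytometry and profiled either directly or after 72 h with antibodies to CD3, bound to the plate, and to CD28, in solution. The stimulated cultures were kept under conditions named Th0, Th1, Th2, Th17 and Treg. With the unstimulated naive cells this gave 12 groups of genotype and condition with 3 arrays each, 36 in all. The labels give no cytokine for any condition, no driver of the Trim28 deletion, no strain and no age. The Treg samples are cultures of stimulated cells placed in a Treg condition and are not Treg cells sorted from an animal. The labels leave it unsaid whether samples of the same group are separate mice, so p-values measure the spread between these samples, which may be technical. Having 3 arrays a group limits the precision.

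FOXP3 is the transcription factor that defines Treg cells. Naive CD4 T cells can be brought to express Foxp3 in culture, and TGF-beta with IL-2 is the usual stimulus. Ikzf2 encodes Helios and Ikzf4 encodes Eos, both zinc-finger factors of the Ikaros family that act with FOXP3 in Treg cells. Nt5e encodes CD73, the surface enzyme that makes adenosine from AMP, and Ctla4 encodes the receptor that competes with CD28 for CD80 and CD86. CTLA-4 and CD73 are also found on activated T cells that are not Treg cells.

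Foxp3 lies at chrX:7579676-7595243, Nt5e at chr9:88327609-88372089, Ctla4 at chr1:60909025-60915832, Ikzf2 at chr1:69531207-69687351 and Ikzf4 at chr10:128630839-128669671, in the RefSeq annotation of build GRCm38.p6. The RefSeq promoter table held 3 of the 5 genes, Foxp3, Nt5e and Ctla4, and all 3 are shown. Each line gives the 250 bases before an annotated transcript start, 5′ to 3′ on the plus strand. The windows are chrX:7579426-7579675 for the first Foxp3 start, chrX:7580233-7580482 for a second Foxp3 start inside the annotated gene, chr9:88327359-88327608 for Nt5e and chr1:60908775-60909024 for Ctla4. Capitals mark matches, on either strand, to motif letters associated with factors downstream of T cell activation or with the core promoter.
Foxp3 start 1: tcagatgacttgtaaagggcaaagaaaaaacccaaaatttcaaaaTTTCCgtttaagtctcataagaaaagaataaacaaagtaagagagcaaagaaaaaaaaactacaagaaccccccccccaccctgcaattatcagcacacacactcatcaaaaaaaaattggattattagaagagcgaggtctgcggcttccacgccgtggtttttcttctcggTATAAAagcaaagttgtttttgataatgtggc
Foxp3 start 2: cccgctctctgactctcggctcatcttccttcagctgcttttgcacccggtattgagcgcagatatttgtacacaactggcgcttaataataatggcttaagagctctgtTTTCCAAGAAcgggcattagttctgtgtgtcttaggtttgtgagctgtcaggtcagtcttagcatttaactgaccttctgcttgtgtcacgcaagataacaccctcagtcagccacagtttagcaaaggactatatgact
Nt5e: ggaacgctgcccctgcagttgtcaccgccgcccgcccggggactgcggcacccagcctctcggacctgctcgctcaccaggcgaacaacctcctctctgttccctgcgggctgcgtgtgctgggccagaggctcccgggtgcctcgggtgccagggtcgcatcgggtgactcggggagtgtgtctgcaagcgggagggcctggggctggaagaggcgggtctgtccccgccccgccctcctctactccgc
Ctla4: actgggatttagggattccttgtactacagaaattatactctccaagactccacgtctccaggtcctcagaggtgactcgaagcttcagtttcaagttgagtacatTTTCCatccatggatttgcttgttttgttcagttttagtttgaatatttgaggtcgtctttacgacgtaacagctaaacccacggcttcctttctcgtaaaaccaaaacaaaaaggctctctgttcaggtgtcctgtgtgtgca

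The 5 motifs searched were the NFAT core GGAAA, the AP-1 site TGANTCA, the RUNX site TGTGGT, the STAT site TTCNNNGAA and the TATA box TATAAA. The first Foxp3 window held 1 NFAT core and 1 TATA box, and the second held 1 NFAT core that overlaps 1 STAT site. Ctla4 had 1 NFAT core, and the Nt5e window had no match to any of the 5. Among all 32841 windows of this length in the table, 55.6% held the NFAT core, 6.75% the AP-1 site, 14% the RUNX site, 7.02% the STAT site and 12.4% the TATA box. The windows differ in base composition. The Nt5e window is 72% G or C with 21 CpG dinucleotides, while the Ctla4 window is 42.4% with 7 and the first Foxp3 window is 37.6% with 6. The median over all windows is 52.4%. A match is a description of letters and says nothing of binding.

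The deposited values are log2 intensities, on which 1 probe set cannot be set against another. Tests are from 1 limma fit over all 36 samples and 13082 genes above the table median of 5.26 in at least 3 samples, with Benjamini-Hochberg adjustment within each comparison and calls at an adjusted p under 0.05. All 5 genes passed that filter. Ranges of 3 samples that do not overlap are common in these data. Between genotypes they were found for 12.4% of all tested genes in naive cells, 50.3% in Th0 and 52.7% in Th1. In Th2, Th17 and Treg cultures the shares were 31.5%, 30.1% and 17.3%. In WT cells they were 63.2% for Th0 against naive cells and 60.4% for Treg against Th17. Against WT Th0 they were 34.5% in Th1, 53.1% in Th2, 56.1% in Th17 and 52% in Treg. For KO Treg against KO Th0 the share was 31.9%. Trim28 itself measured 9.21 to 9.99 in WT samples, 7.20 to 7.86 in KO naive samples and 5.51 to 6.58 in stimulated KO samples, and no KO sample overlapped a WT sample. The 8 CD4 T cell markers on the array averaged 10.46 to 11.17 in every sample. Markers of other cell types were mixed. Of 8 B cell markers, Cd79a, Ms4a1 and Cd22 were above the threshold in 0 of 36 samples. Pax5 was above it in 5, Blnk in 2, H2-Aa in 1, Cd79b in 23 and H2-Ab1 in 21, at up to 10.47. Of 11 myeloid markers, 6 including Lyz2, Csf1r and Cd14 were above it in 0 samples. Cd68 was above it in 36, Fcer1g in 19, Tyrobp in 15, Itgam in 10 and Adgre1 in 7, at up to 10.32. Of 9 CD8 and NK cell markers, Klrb1c and Ncr1 were above it in 0 samples. Cd8b1 and Prf1 were above it in 36, Klrd1 in 29, Gzmb in 22, Gzma in 13, Cd8a in 7 and Klrk1 in 3. The mean of 17 proliferation genes was 10.65 to 10.70 in WT Th0 samples and 7.65, 9.58 and 9.22 in KO Th0 samples. It was 10.67 to 10.70 in WT Th1 samples and 8.04, 10.01 and 9.72 in KO Th1 samples, so number 1 of both KO groups stood apart. The female-specific transcript Xist was high in 3 samples, naive WT 1 and naive KO 1 and 2, and low in the other 33, so the naive groups differ in sex makeup.

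**Figure D1:**
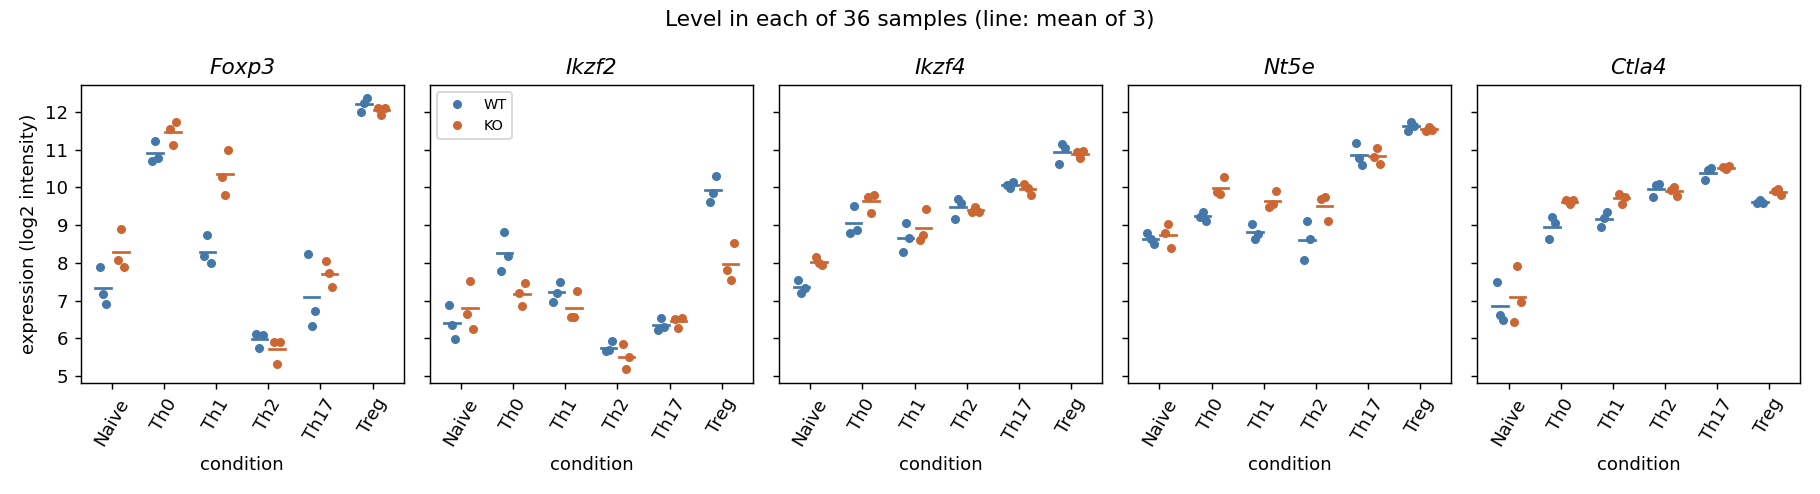
Level of each gene in each of the 36 samples, as log2 intensity, by condition and genotype. Points are samples (blue WT, orange KO) and lines are means of 3. The 3 WT Treg samples of Ikzf2 (9.62 to 10.29) lie above all 3 KO Treg samples (7.56 to 8.52), and the 3 KO Th1 samples of Foxp3 (9.79 to 11.00) lie above the WT Th1 samples (8.005 to 8.73). Heights are not comparable between panels.

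Foxp3 levels differed widely between conditions. In WT naive cells Foxp3 measured 7.88, 7.18 and 6.92, and in WT Th0 cultures it measured 10.70, 11.23 and 10.78. Stimulation without a named lineage was thus accompanied by Foxp3 levels that no naive sample reached, a difference of 3.58 (SE 0.35, 11.9-fold, limma adjusted p = 1.58e-09). WT Treg cultures measured 12.004, 12.24 and 12.35. All 3 were above every Th0 sample, by 1.29 (SE 0.35, 2.45-fold, adjusted p = 0.00382). In these bulk samples a change in the share of cells that express a gene and a change in RNA per cell cannot be told apart. The other 3 WT cultures were below Th0. Foxp3 measured 8.17, 8.73 and 8.005 in WT Th1, 6.07-fold lower than in Th0. In WT Th17 it measured 8.22, 6.33 and 6.74, a difference of -3.81 from Th0, and number 1 stood above the other two. Th2 was lowest with 6.12, 5.75 and 6.08, 30.3-fold lower, at levels near the table median of 5.26. All these WT differences passed the test, and in none of them did the groups overlap.

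Loss of TRIM28 went with a higher Foxp3 level in Th1 cultures. KO Th1 samples measured 10.28, 9.79 and 11.00 against 8.17, 8.73 and 8.005 in WT. The lowest KO sample was above the highest WT sample, as for 22.9% of all genes in Th1. The difference was 2.05 (SE 0.35, 4.15-fold, limma adjusted p = 3.94e-05), and it passed in all 20 alternatives run, between 1.73 and 2.34. Without the KO Th0 and Th1 samples of number 1 it was 2.09. Proliferation genes were lower in KO Th1 (17 of 17, median -1.43, beside 23.7% of all genes lower). Marker lists of other cell types also differed there. The 9 CD8 and NK cell markers averaged 6.36 to 6.44 in WT and 5.46 to 6.05 in KO. Of 7 tested, 3 were lower (Klrk1, Gzma and Gzmb). In WT cells 3 of the 7 were higher in Th1 than in Th0, beside 5.43% of all genes. The 8 B cell markers averaged 4.88 to 4.93 in WT and 4.50 to 4.79 in KO, with 2 of 3 tested lower (Pax5 and H2-Ab1). Their part in the Foxp3 difference was not tested. The mean KO level in Th1, 10.35 ± 0.61 (SD, n = 3), overlapped WT Th0 (10.90 ± 0.28), and KO Th1 differed from KO Th0 by -1.12 (adjusted p = 0.0452). That last call is weak in the fits run, none of which paired these 2 groups alone by number. Over all genes, KO Th1 and KO Th0 samples of the same number deviated together (r from 0.511 to 0.697). The call was lost in 10 of 20 alternatives, among them without KO Th0 1, KO Th0 3, KO Th1 1 or KO Th1 2. Over the 20, adjusted p ran from 0.0175 to 0.264.

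No other condition gave a called genotype difference for Foxp3. In the Treg condition, KO samples measured 12.11, 11.93 and 12.09 against 12.004, 12.24 and 12.35 in WT. These overlap, and the difference of -0.15 has a 95% interval from -0.87 to 0.56. KO Th0 measured 11.56, 11.13 and 11.72, a difference of 0.57 (-0.15 to 1.29, adjusted p = 0.222). In naive cells the KO samples measured 8.08, 8.89 and 7.88. The difference there was 0.96 (0.24 to 1.68) with an adjusted p of 0.341. Foxp3 lies on the X chromosome, and with a term for sex in the model the naive difference was 0.72. Among naive samples low in Xist, the KO sample measured 7.88 and the WT samples 7.18 and 6.92. KO Th17 cultures measured 8.05, 7.73 and 7.35, a difference of 0.62 (adjusted p = 0.334). Without WT Th17 1, the high WT sample, that difference was 1.18 with an adjusted p of 0.0243, in a range of 0.0243 to 0.787 over the alternatives. KO Th2 samples, at 5.92, 5.34 and 5.91, overlapped WT (difference -0.26, -0.98 to 0.46). Both groups were near the table median of 5.26, where a fall could be missed. In the order of group means, WT Treg led KO Treg with overlapping ranges, followed after a gap by KO Th0, WT Th0 and KO Th1, each overlapping the next. After a second gap came WT Th1, KO naive, KO Th17, WT naive and WT Th17, again each overlapping the next. WT and KO Th2 were below all of them.

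Ikzf2, the gene for Helios, was the member that fell without TRIM28. WT Treg cultures measured 9.62, 9.86 and 10.29, and KO Treg cultures 7.82, 7.56 and 8.52. The groups were apart by more than 1 log2 unit at their nearest samples. The difference was -1.95 (SE 0.29, 3.87-fold lower, limma adjusted p = 4.46e-05), in cultures whose Foxp3 levels overlapped. It passed in all 20 alternatives, between -2.34 and -1.75. The proliferation mean overlapped in these cultures, at 8.25 to 8.99 in WT and 8.29 to 8.94 in KO. The CD8 and NK cell markers averaged 4.85 to 5.05 in WT and 5.25 to 5.44 in KO, with 2 of 7 tested higher (Cd8a and Prf1). The 11 myeloid markers averaged 4.73 to 4.84 in WT and 4.92 to 5.04 in KO, with 1 of 5 tested higher (Itgam). Their part was not tested.

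In Th0 cultures Ikzf2 measured 7.78, 8.83 and 8.18 in WT and 7.21, 6.85 and 7.48 in KO. The ranges did not overlap, and the difference was -1.09 (SE 0.29, 2.12-fold lower, adjusted p = 0.00447). This call depends on WT Th0 2, the highest sample. Without it the difference was -0.80 with an adjusted p of 0.0519, in a range from 0.000533 to 0.0519 over 20 alternatives. Without the KO samples of number 1 it was -1.10. The B cell markers averaged 4.62 to 4.73 in WT Th0 and 4.51 to 4.62 in KO Th0, with 2 of 3 tested lower (Cd79b and H2-Ab1). The myeloid markers averaged 4.62 to 4.69 and 4.72 to 4.76, with 0 of 5 called. Of 7 tested CD8 and NK cell markers 2 were higher and 2 lower in KO Th0. Of 8 CD4 T cell markers 2 were higher and 1 lower. Proliferation genes were lower there (17 of 17, median -1.86, beside 19.6% of all genes lower). The part of all these lists was not tested. Elsewhere the Ikzf2 ranges of the genotypes overlapped. Ikzf2 in Th1 measured 6.98, 7.20 and 7.50 in WT and 6.57, 6.57 and 7.27 in KO (difference -0.42, -1.02 to 0.19). In naive cells it measured 6.87, 6.36 and 5.97 in WT and 6.65, 7.51 and 6.26 in KO (0.40, -0.20 to 1.01). Th17 and Th2 values ran from 5.19 to 6.55 over both genotypes, with differences of 0.10 and -0.24. With the table median at 5.26, a fall at such low levels could be missed.

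Among WT groups Ikzf2 followed the order of Foxp3. It was 1.86 higher in Th0 than in naive cells (3.63-fold) and 1.66 higher again in Treg than in Th0 cultures (3.15-fold, adjusted p = 4.26e-05). Relative to Th0 it differed by -1.04 in Th1, -1.91 in Th17 and -2.51 in Th2. The Th1 call was lost without WT Th0 2 (-0.76), WT Th1 1 or WT Th1 2, with adjusted p from 0.000602 to 0.148 over 20 alternatives. In KO cells the corresponding rises did not pass the test. KO Th0 was 0.37 above KO naive cells (adjusted p = 0.334), and KO Treg was 0.79 above KO Th0 (adjusted p = 0.0586), with all 3 KO Treg samples above all 3 KO Th0 samples. With the term for sex the first of these was 0.88 with an adjusted p of 0.0345, in a range of 0.0345 to 0.848 over 20 alternatives, and of the 3 KO naive samples 2 were high in Xist. The second passed in 5 of 20 alternatives (adjusted p from 0.0348 to 0.291), among them without KO Treg 2 or KO Th0 3. The rise from naive to Th0 was itself smaller in KO, with a difference of -1.49 (SE 0.42, adjusted p = 0.0131). That difference was lost without WT Th0 2 (adjusted p = 0.053) and when only those 4 groups were fitted (0.058). For the rise from Th0 to Treg the genotypes differed by -0.87 (adjusted p = 0.126), which passed in 3 of 26 alternatives: with array weights, without WT Th0 2 and without KO Treg 3 (adjusted p from 0.00652 to 0.31). The order of group means began with WT Treg, apart from all others, then WT Th0 and KO Treg, which overlapped. A middle run of WT Th1, KO Th0, KO naive and KO Th1 overlapped from each group to the next. It was followed by KO Th17, WT naive and WT Th17, and by WT and KO Th2 at the bottom.

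**Figure D2:**
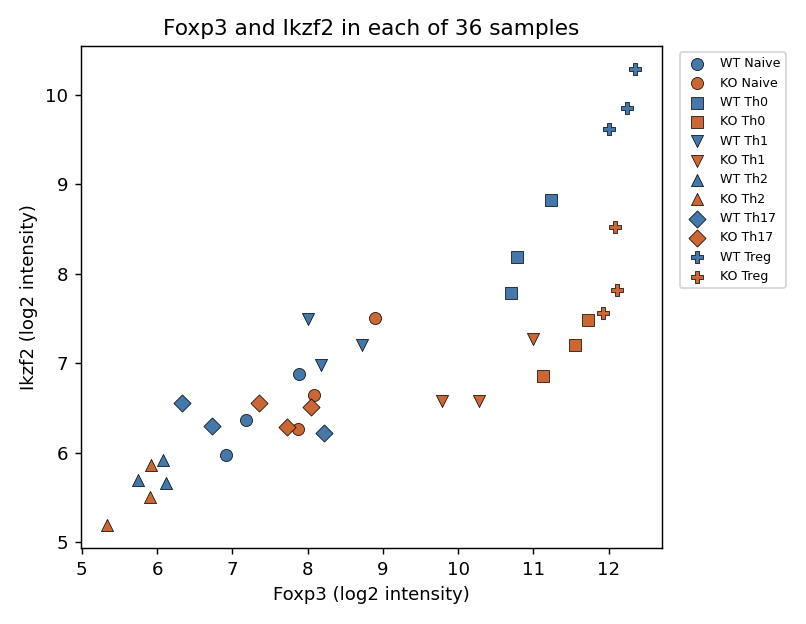
Foxp3 (x axis) against Ikzf2 (y axis), both in log2 intensity, in each of the 36 samples. Symbols are conditions and colours are genotypes (blue WT, orange KO). The 3 WT Treg samples are at the upper right with Ikzf2 from 9.62 to 10.29, and the 3 KO Treg samples have Ikzf2 from 7.56 to 8.52 at Foxp3 from 11.93 to 12.11.

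Over the 6 WT group means, Pearson's r between Foxp3 and Ikzf2 was 0.983, and over the 6 KO group means it was 0.93. Over all 12 it was 0.853. These are descriptions of a few group means that share arrays and normalization. Foxp3 had an r of 0.42 with Ikzf4, 0.519 with Nt5e and 0.0523 with Ctla4 over the 12 groups. Ikzf4 was closest to Nt5e (0.876) and to Ctla4 (0.798). Without the 2 Treg groups, r between Foxp3 and Ikzf2 was 0.846 while that between Foxp3 and Ikzf4 was -0.0259. Other tested genes were ranked by likeness to each member, leaving out symbols of Gm, Mir or Rik form, Xist and Y-linked genes. The 5 whose 12 group means were most like those of Foxp3 were Gtpbp8 (r = 0.966), Pus3, Tlr2, Pycard and Aasdh. For Ikzf2 they were Npepl1 (0.95), Id3, Zfp706, Tcf24 and Myo9a. For Ikzf4 they were Bmpr2 (0.97), Fam214b, Zfp358, Nol4l and Sytl1, for Nt5e Bckdha (0.958), Serinc5, Zfp637, Cd101 and Slc44a1, and for Ctla4 Rhoq (0.986), Gskip, Rab5b, Chmp5 and Syap1.

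Ikzf4, the gene for Eos, was highest in the Treg condition and lowest in naive cells, and it was not low in Th17 or Th2. WT Treg cultures measured 10.63, 11.15 and 11.05 and KO Treg cultures 10.94, 10.78 and 10.96. These overlap, with a difference of -0.05 (-0.46 to 0.36). WT Treg was above WT Th0 (8.80, 9.51 and 8.88) by 1.88 (SE 0.20, 3.68-fold, limma adjusted p = 2e-08). WT Th17, at 10.06, 9.98 and 10.15, was above WT Th0 with a 95% interval of 0.59 to 1.41 (adjusted p = 0.000194). Neither Th1 nor Th2 passed against Th0 in WT cells, although Th2 did with array weights and without WT Th2 1 or WT Th0 2 (adjusted p from 0.00043 to 0.341). WT Th0 was above naive WT cells (7.54, 7.20 and 7.34) by 1.71. The genotype difference was called in Th0, where KO samples measured 9.75, 9.32 and 9.80. The ranges overlap, and the difference was 0.56 (SE 0.20, 1.48-fold, adjusted p = 0.0289). It was lost without WT Th0 1 or 3 or without KO Th0 1 or 3, when only the Th0 samples were fitted, and without number 1 of both KO groups (0.50, adjusted p = 0.0918). Over its 20 alternatives the adjusted p ran from 0.0052 to 0.144. In naive cells all 3 KO samples (8.16, 7.99 and 7.95) were above all 3 WT samples, by 0.68 (0.26 to 1.09), with an adjusted p of 0.13. With the term for sex the naive difference was 0.61. In Th1, Th2 and Th17, where Ikzf4 ran from 8.28 to 9.42, 9.16 to 9.70 and 9.79 to 10.15, the genotypes overlapped, with differences of 0.26, -0.09 and -0.11. The group order was WT and KO Treg, then a run from WT Th17 through KO Th17, KO Th0, WT Th2, KO Th2, WT Th0 and KO Th1 to WT Th1 in which each group overlapped the next. KO naive and WT naive cells were each separate below.

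Nt5e, the gene for CD73, was higher in KO cells in the Th0, Th1 and Th2 conditions. In Th0 it measured 9.23, 9.35 and 9.12 in WT and 9.88, 9.83 and 10.26 in KO, a difference of 0.76 (SE 0.20, 1.69-fold, limma adjusted p = 0.00401). In Th1 it measured 9.03, 8.64 and 8.78 in WT and 9.47, 9.57 and 9.92 in KO, a difference of 0.84 (1.79-fold, adjusted p = 0.00155). Every KO sample was above every WT sample in both, as for 24.1% of all genes in Th0 and 22.9% in Th1. In Th2 it measured 8.08, 9.10 and 8.63 in WT and 9.69, 9.74 and 9.12 in KO. The lowest KO sample was just above the highest WT sample, and the difference was 0.91 (1.88-fold, adjusted p = 0.00206). The Th0 and Th1 calls held in all 20 alternatives, and without number 1 of both KO groups the differences were 0.81 and 0.93. The Th2 call was lost when only the Th2 samples were fitted (adjusted p = 0.0829, in a range from 0.000232 to 0.0829). Beside it, the myeloid markers averaged 5.02 to 5.11 in WT Th2 and 5.19 to 5.32 in KO Th2, with 1 of 5 tested higher (Adgre1). The CD8 and NK cell markers averaged 5.89 to 5.93 and 5.99 to 6.21, with 1 of 7 higher (Gzma), and 5 of 8 CD4 T cell markers were higher. The part of these lists was not tested. In Th17 (11.18, 10.77 and 10.60 in WT, 10.79, 11.04 and 10.63 in KO) and in Treg cultures (11.50, 11.72 and 11.63 in WT, 11.50, 11.60 and 11.51 in KO) the genotypes overlapped. The differences there were -0.03 (-0.44 to 0.39) and -0.08 (-0.495 to 0.33). Naive cells, at 8.80, 8.65 and 8.49 in WT and 8.78, 9.02 and 8.41 in KO, differed by 0.09. The KO difference in Treg cultures relative to that in Th0 was -0.84 (SE 0.29, adjusted p = 0.0296). This call was lost without WT Treg 2, WT Treg 3, KO Treg 1, WT Th0 3 or KO Th0 3, with adjusted p from 0.00554 to 0.0881 over 26 alternatives.

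Across WT conditions Nt5e was highest in Treg cultures, 2.39 above Th0 (5.23-fold) and 0.77 above Th17. Th17 was 1.62 above Th0, and Th2 differed from it by -0.63 (adjusted p = 0.0141). The Th2 call was lost without WT Th2 1 (-0.37) or WT Th0 2, with array weights (-0.24) and when only those groups were fitted, with adjusted p from 0.00141 to 0.151 over 20 alternatives. Th0 was above naive WT cells by 0.59 (adjusted p = 0.0156), a call lost without WT Th0 2 or WT naive 3 (adjusted p from 0.00198 to 0.0657). By group means, WT and KO Treg were followed by WT and KO Th17, with a gap between the conditions. The KO Th0, KO Th1, KO Th2 and WT Th0 groups came next, each overlapping the following one. WT Th1, both naive groups and WT Th2 were below. All 3 KO groups with a called difference had means above that of WT Th0.

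Ctla4 had its highest levels in Th17 and not in Treg cultures. WT Th17 samples measured 10.20, 10.46 and 10.50 and WT Treg samples 9.59, 9.66 and 9.60. WT Treg differed from WT Th17 by -0.77 with no overlap (SE 0.23, limma adjusted p = 0.00614) and 0.66 above WT Th0 (adjusted p = 0.024). The Treg over Th0 call was lost without WT Th0 1, WT Treg 2 or WT Treg 3, with adjusted p from 0.00254 to 0.136 over its alternatives. Stimulation to Th0 raised Ctla4 by 2.09 (4.26-fold) in WT cells, from 7.49, 6.63 and 6.49 to 8.63, 9.21 and 9.04. WT Th2, at 9.75, 10.07 and 10.08, was 1.01 above Th0, while WT Th1, at 8.94, 9.20 and 9.34, overlapped Th0. In KO Th0 samples Ctla4 measured 9.66, 9.55 and 9.66. All 3 were above the WT samples, by 0.66 (SE 0.23, 1.58-fold, adjusted p = 0.0263). That call was lost without WT Th0 1, KO Th0 1 or KO Th0 3, and without number 1 of both KO groups, where the difference was 0.64. Adjusted p ran from 0.0131 to 0.143 over 20 alternatives. KO Th1 samples (9.83, 9.55 and 9.75) were likewise all above WT, by 0.55 (0.07 to 1.03), with an adjusted p of 0.0603. This Th1 difference passed in 3 of 20 alternatives (adjusted p from 0.0185 to 0.199). In Treg cultures the KO samples measured 9.90, 9.95 and 9.79, also all above WT, by 0.26 (-0.22 to 0.74, adjusted p = 0.68). The naive, Th2 and Th17 differences were 0.24, -0.06 and 0.14, with overlapping ranges. By group means, both Th17 groups led, and WT Th1 and WT Th0 were the lowest of the stimulated groups. Between them, WT Th2, KO Th2, KO Treg, KO Th1, KO Th0 and WT Treg overlapped from each to the next. Naive cells of both genotypes were separate at the bottom.

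**Figure D3:**
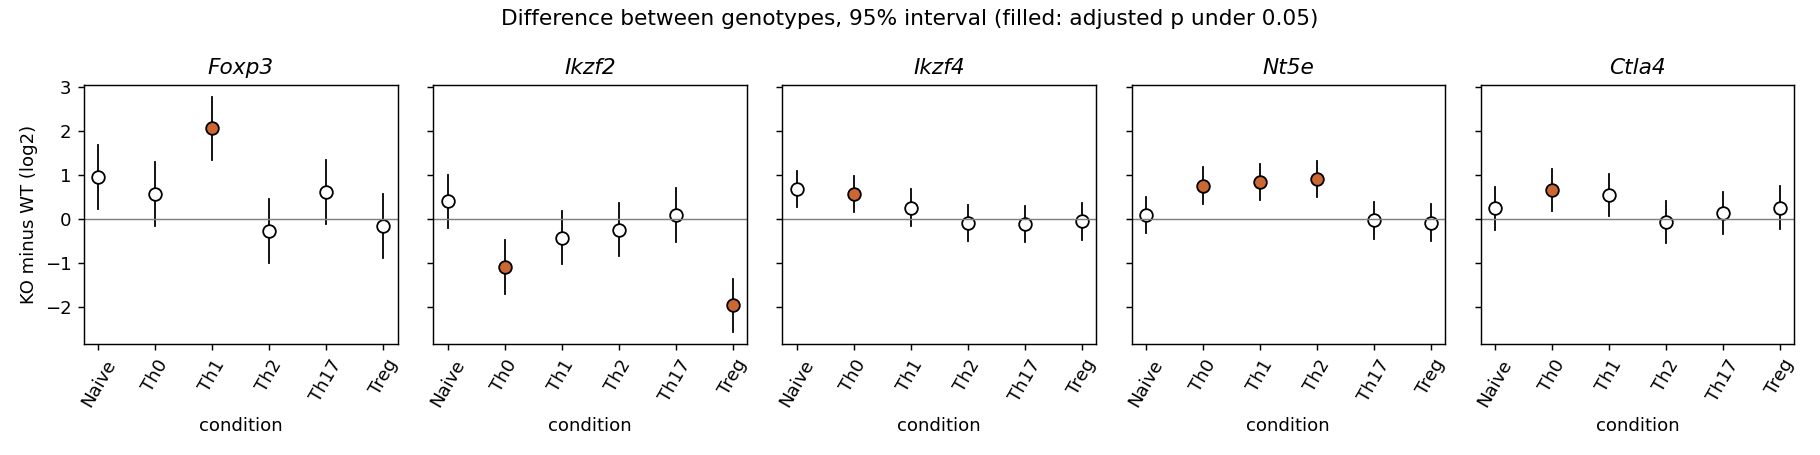
Difference between KO and WT means (log2, y axis) in each condition (x axis) for the 5 genes. Bars are 95% intervals of the limma fit, and filled points passed at an adjusted p under 0.05. Foxp3 has its filled point in Th1 (2.05), and Ikzf2 has filled points below 0 in Th0 (-1.09) and Treg (-1.95).

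Read by condition, 8 of the 30 genotype differences of the 5 genes passed, beside 17.9% over all tested genes, and they fell in different cultures. In Th0, Ikzf4, Nt5e and Ctla4 were higher, 3 of 5 beside 16.8% of all genes, and Ikzf2 was lower, 1 of 5 beside 19.6% (36.4% either way). In Th1, Foxp3 and Nt5e were higher, 2 of 5 beside 17% of all genes, and 0 were lower beside 23.7%. Taken either way, 2 of 5 is close to the 40.7% of all genes called there. In Th2, Nt5e was higher, 1 of 5 beside 7.51%, and 0 were lower beside 8.88% (16.4% either way). In Treg cultures Ikzf2 was lower, 1 of 5 beside 2.51%, and 0 were higher beside 1.71% (4.22% either way). In naive cells limma called 0 of 5, beside 0.948% of all genes higher and 0.199% lower (1.15% either way). Foxp3 and Ikzf4 had an unadjusted limma p under 0.05 there, but the share of all genes at that threshold was not counted. The naive groups also differ in sex makeup. Trim28 itself was less reduced in KO naive samples (7.20 to 7.86) than in stimulated KO samples (5.51 to 6.58). In Th17 limma called 0 of 5, beside 4.03% higher and 4.18% lower (8.21% either way). There 0 had an unadjusted p under 0.05, again without a count over all genes. Averaged over the 6 conditions, all 5 were called, 4 higher beside 18.9% of all genes and 1 lower beside 27.5% (46.4% either way). Foxp3 was higher by 0.63 (SE 0.14), Nt5e by 0.41, Ctla4 by 0.30 and Ikzf4 by 0.21 (adjusted p = 0.0378), and Ikzf2 differed by -0.53. For Ikzf4 the average was not called in 20 of 49 alternatives, where it stayed above 0 (0.17 to 0.25 over all 49, with adjusted p from 0.011 to 0.0898).

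Differences between conditions were called more often, in 26 of 30 tests of the 5 genes within WT cells (39.9% over all genes) and 19 of 30 within KO cells (36%). In WT cells all 5 were higher in Th0 than in naive cells, beside 31.2% of all genes higher and 22.3% lower (53.6% either way). All 5 were also higher in Treg than in Th0 cultures, beside 19.2% higher and 22.4% lower (41.6%). Against Th17, 4 of 5 were higher in Treg cultures and Ctla4 was lower, beside 25.6% and 28.5% (54.1%). In Th2 against Th0, Ctla4 was higher and Foxp3, Ikzf2 and Nt5e were lower, beside 17.2% and 22.9% (40.1%), the Nt5e call being the one lost without WT Th2 1. In Th17 against Th0, Ikzf4, Nt5e and Ctla4 were higher and Foxp3 and Ikzf2 lower, beside 20.3% and 18.8% (39.1%). In Th1 against Th0, Foxp3 and Ikzf2 were lower and 0 higher, beside 5.4% lower and 5.43% higher (10.8%), and the Ikzf2 call was kept in 17 of 20 alternatives. All comparisons with Th0 share its 3 samples of that genotype.

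In KO cells Foxp3, Ikzf4, Nt5e and Ctla4 were higher in Th0 than in naive cells, 4 of 5 beside 26.2% of all genes higher and 14.7% lower (40.8% either way). Ikzf4 (1.27) and Nt5e (1.55) were higher in KO Treg than in KO Th0 cultures, 2 of 5 beside 7.66% higher and 12% lower (19.6%). Against KO Th17, 4 of 5 were higher in KO Treg cultures, with Foxp3 at 4.33, and Ctla4 was lower (-0.65), beside 24.6% and 27.5% (52.1%). That Ctla4 call was lost without KO Th17 1, KO Th17 3 or KO Treg 3 (adjusted p from 0.000606 to 0.0597). In KO Th2 against Th0, Foxp3 and Ikzf2 were lower and 0 higher, beside 24.8% lower and 18.4% higher (43.3%). In KO Th17 against Th0, Nt5e and Ctla4 were higher and Foxp3 and Ikzf2 lower, beside 25.4% and 26.2% (51.6%). The Ikzf2 call (-0.73, adjusted p = 0.0391) was kept in 9 of 20 alternatives and lost without KO Th0 1 or 3, without any of the 3 KO Th17 samples and with quantile normalization, aligned medians or cyclic loess (adjusted p from 0.00881 to 0.152). In KO Th1 against Th0, Foxp3 and Ikzf4 were lower and 0 higher, beside 5.14% lower and 3.36% higher (8.49%), and the Ikzf4 call was kept in 11 of 20 alternatives, being lost without KO Th0 1 or 3 or KO Th1 1 or 2.

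Whether the genotype difference itself changed between conditions was tested directly, with 2 of 25 tests of the 5 genes called beside 14.4% over all genes. Ikzf2 was lower in Th0 relative to naive cells, 1 of 5 beside 10.4% of all genes lower and 8.06% higher (18.5% either way). Nt5e was lower in Treg relative to Th0, 1 of 5 beside 13.9% lower and 13.1% higher (27%). In Th1 relative to Th0 limma called 0 of 5, beside 0.451% lower and 0.138% higher (0.589%), and Foxp3 gave 1.49 (SE 0.50) with an adjusted p of 0.283. Th2 relative to Th0 gave 0 of 5, beside 5.22% lower and 4.97% higher (10.2%), and Th17 relative to Th0 gave 0 of 5, beside 8.22% and 7.41% (15.6%). In Th17 relative to Th0, Ikzf2 gave 1.18 (adjusted p = 0.052) and passed in 10 of 26 alternatives (0.00686 to 0.166). Nt5e gave -0.78 there (adjusted p = 0.0599, from 0.0382 to 0.156 over its alternatives). With the Treg cultures set against the other conditions, a choice made after seeing the data, 7 of 20 tests were called beside 11.3% over all genes. The Ikzf2 difference in Treg cultures was -2.35 relative to naive cells (adjusted p = 0.00111), beside 1.22% of all genes lower and 0.482% higher (1.7%). It was -1.53 relative to Th1 (0.00661), -1.71 relative to Th2 (0.00827) and -2.05 relative to Th17 (0.0027), and all 4 held in 26 of 26 alternatives. Relative to Th0 the planned test was not called (-0.87, adjusted p = 0.126). WT Ikzf2 was 9.62 to 10.29 in Treg cultures. It was only 5.97 to 6.87 in naive cells, 5.66 to 5.92 in Th2 and 6.22 to 6.55 in Th17. At such low levels a fall could be missed, and the part of the starting level was not tested. The Foxp3 difference in Treg cultures was -2.21 relative to Th1 (SE 0.50, adjusted p = 0.00151), also in all 26. The Nt5e difference in Treg cultures was lower relative to Th1 in 26 of 26 alternatives. Relative to Th2 it was -0.99 (adjusted p = 0.0267), and this call was kept in 19 of 26 alternatives. It was lost without WT Th2 1 (-0.73), KO Th2 1 or 2, WT Treg 2 or 3 or KO Treg 1, and when only those groups were fitted (adjusted p from 0.00457 to 0.109). Beside these, 14.2% of all genes were lower and 15.7% higher relative to Th1 (29.9%), 5.28% and 3.54% relative to Th2 (8.82%), and 2.87% and 1.96% relative to Th17 (4.83%).

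Other genes tied to Treg cells, of which 26 were tested, moved in both directions. In naive KO cells 5 rose and 0 fell, beside 0.948% of all genes higher and 0.199% lower, with a median over the list of 0.27 beside -0.02 over all genes. They included Nrp1, the coreceptor neuropilin-1 (3.03), and the IL-2 receptor chains Il2ra (1.06) and Il2rb (1.03). In Th0, 3 rose and 2 fell, beside 16.8% and 19.6% of all genes, led by Nrp1 (1.93), the chemokine receptor Ccr8 (-1.81) and Izumo1r, the gene for folate receptor 4 (1.31). In Th1, 3 rose and 7 fell, beside 17% and 23.7%, shares close to those of the list, among them Penk, which encodes proenkephalin (-2.75), and Il10 (-1.83). Without number 1 of both KO groups, 3 rose and 2 fell there, and with array medians aligned 2 rose and 8 fell. In Th2, 4 rose and 2 fell (7.51% and 8.88% of all genes), with Penk at -4.18 and Izumo1r at 1.51, and in Th17, 4 rose and 1 fell (4.03% and 4.18%), with Tigit at 1.63 and Nrp1 at -0.99. In Treg cultures, where Ikzf2 fell, Gpr83 (2.47), Izumo1r (1.91) and Swap70 (1.03) rose, and Entpd1, the gene for CD39 (-0.89), and Icos (-0.85) fell. All genes gave 1.71% higher and 2.51% lower there. The median over the list in Treg cultures was -0.08, beside -0.03 over all genes.

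Of 34 tested factors that act on the Foxp3 locus, 15 were higher and 4 lower in KO Th0 cultures, and 16 and 5 in Th1. Of all genes, 16.8% were higher and 19.6% lower in Th0, and 17% and 23.7% in Th1. The list had medians of 0.23 and 0.25 beside -0.001 and -0.03 over all genes. The fallers were led by Uhrf1 (-2.67 in Th0, -2.12 in Th1) and by Dnmt1 (-1.32 and -0.99), which maintain DNA methylation at replication. The repressor Bach2 was higher (0.96 and 1.23), as was Runx1 in Th1 (1.06). Proliferation genes were lower in the same cultures, 17 of 17 in each of Th0 and Th1, with medians of -1.86 and -1.43, and 17 of 17 and 13 of 17 without number 1 of both KO groups. Their part in these differences was not tested. The locus factors gave 8 higher and 3 lower in Th2, led by Stat5a (0.94), and 3 and 0 in Th17. They gave 0 and 1 in Treg cultures (Foxo1, -0.35) and 0 and 0 in naive cells. Beside these, 7.51% of all genes were higher and 8.88% lower in Th2, and 4.03% and 4.18% in Th17. In Treg cultures 1.71% were higher and 2.51% lower, so 1 of 34 is near the background. With array medians aligned, the Th1 count was 12 higher and 6 lower. In naive cells the count of 0 is beside 1.15% of all genes called.

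Among 15 tested partners and modifiers of the FOXP3 protein, 3 were higher and 4 lower in Th0, and 2 and 4 in Th1. Either way this is 7 of 15 beside 36.4% of all genes in Th0 and 6 of 15 beside 40.7% in Th1, near the background. Xbp1 (-0.99 and -1.14), a factor of the unfolded protein response, and Ezh2, the H3K27 methyltransferase (-0.90 and -0.89), were lower in both, and Gata3 was higher in Th1 (0.71). In Treg, Th2 and naive cells 0 of 15 were called, beside 4.22%, 16.4% and 1.15% of all genes. In Th17 Sirt1 alone was called (-0.25), beside 8.21% of all genes. The 3 remaining Ikaros family genes moved little between genotypes. Ikzf1 was higher by 0.23 in Th0 and 0.31 in Th1, and Ikzf3, the gene for Aiolos, by 0.52 in Th2, while Ikzf5 was not called in any condition. With array medians aligned, the Th0 and Th2 calls of this family were lost. Between WT conditions Ikzf3 was 2.24 higher in Treg than in Th0 cultures.

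Around CD73, 9 tested genes of adenosine handling gave 2 higher and 2 lower in Th0, 3 and 3 in Th1, 2 and 1 in Th2, 1 and 2 in Treg cultures and 0 in naive or Th17 cells. With array medians aligned, Th1 gave 1 and 3. Of all genes, 36.4% were called either way in Th0, 40.7% in Th1, 16.4% in Th2 and 4.22% in Treg cultures, so 4 of 9 in Th0 is near the background. Ada, which breaks adenosine down, was lower in Th0 (-1.10), as was the transporter Slc29a1 (-0.86). Adk, which phosphorylates adenosine, was higher in Th2 (1.03) and lower in Treg cultures (-0.62). Entpd1, which supplies AMP to CD73, was lower in KO Treg cultures (-0.89), where Nt5e overlapped between genotypes. Of 13 genes around CTLA-4, 3 were higher and 3 lower in Th0, 2 and 1 in Th1, 1 and 0 in Th2, 0 and 1 in Th17, 1 and 1 in Treg cultures and 0 in naive cells. Either way this is 6 of 13 in Th0 and 3 of 13 in Th1, beside the same shares of all genes. In Th17 8.21% of all genes were called either way, and in naive cells 1.15%. Icos is in this list and among the other Treg genes. The inhibitory receptor gene Btla was higher in Th0 (0.97) and in Treg cultures (1.69), Trat1 was lower in Th0 (-1.01), Cd86 in Th17 (-1.14) and Icos in Treg cultures (-0.85).

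**Figure D4:**
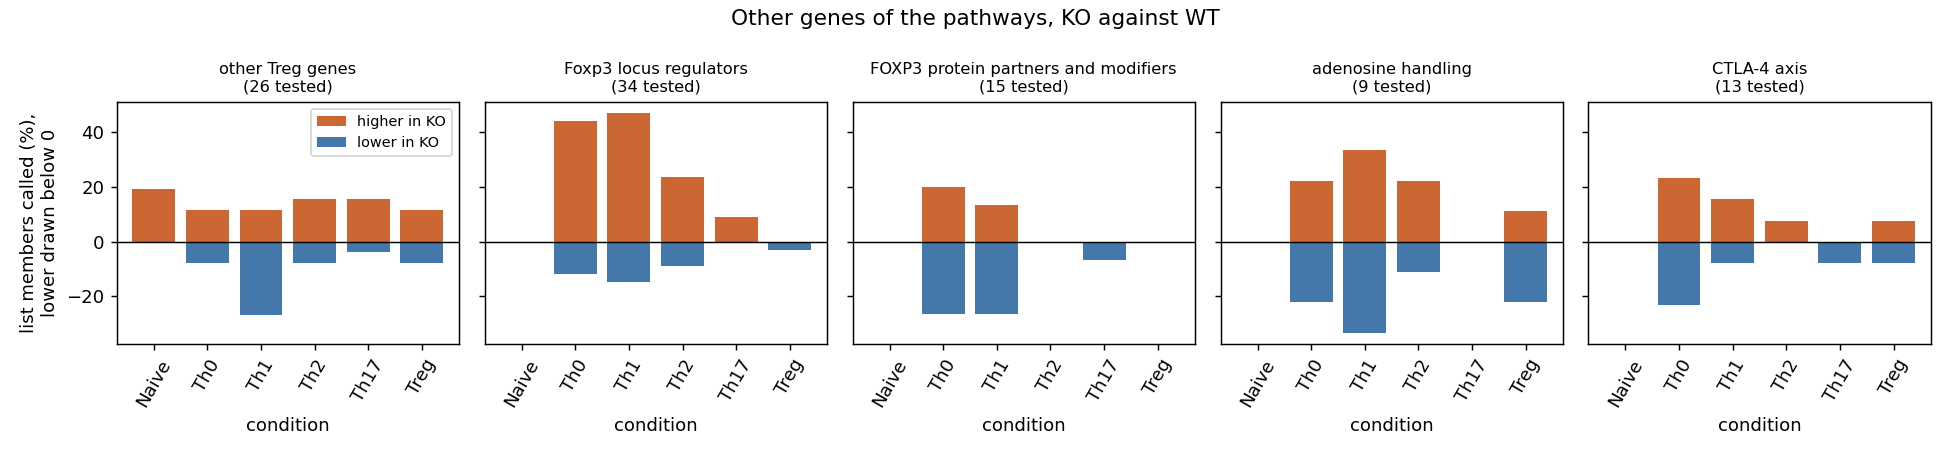
Share of the tested genes of 5 lists (y axis, percent) that were called higher in KO (orange, above 0) or lower in KO (blue, below 0) in each condition (x axis). Of the 34 locus factors, 15 were higher in Th0 and 16 in Th1, and of the 26 other Treg genes 5 were higher in naive cells.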

How the data were processed

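Per the submitters' processing notes, the authors used R 3.1.0 and its oligo package for RMA summaries of the arrays, and the deposited values are log2 intensities. The versions of oligo and RMA, the annotation and the genome build were not given in the sources used here. Values were used as deposited. Probe sets with 1 symbol in the platform annotation were kept, and the row of highest mean was taken per symbol. Differences were fitted with limma 3.58.1 in R 4.3.3 (lmFit, contrasts.fit, eBayes) on 12 group means. In simulated KO against WT data for Th17, 55.2% of 67 genes changed by 0.5, 94% of 67 changed by 1 and all of 66 changed by 2 were recovered, with 10 false calls among 12882. The simulated noise was independent between samples, with 1 spread per gene pooled over the groups. Real spread was uneven, as for Foxp3 in WT Th17 (SD 0.998, against 0.459 pooled), so these rates need not hold for the 5 genes. All columns of samples were used. The genes and gene lists were chosen with earlier results of these data known. Text names the 5 genes throughout, up to 3 called genes of largest change per list and comparison, and the 5 genes most like each member.

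Samples with the same number deviated together in all 3 pairs for Th1, Th2 and Treg against Th0 or Th17 in part of the comparisons (WT Th1 and Th0, 0.23 to 0.387; KO Th1 and Th0, 0.511 to 0.697; KO Treg and Th0, 0.134 to 0.299; WT Th2 and Th0, 0.112 to 0.25; WT Treg and Th17, 0.107 to 0.208), by the correlation of their deviations from group means.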

Additional observations from a re-analysis of the deposited data

Results flagged for a closer look

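The KO minus WT difference differed between conditions, by a limma test of the difference itself, for 3 genes. For Ikzf2 the difference in Th0 was -1.49 relative to naive cells. In Treg cultures it was -2.35 relative to naive cells, -1.53 relative to Th1, -1.71 relative to Th2 and -2.05 relative to Th17. Relative to Th0 it was -0.87, which was not called (adjusted p = 0.126, called in 3 of 26 alternatives). WT Ikzf2 was low in naive, Th2 and Th17 cells, where a fall could be missed. For Foxp3 the difference in Treg cultures was -2.21 relative to Th1. For Nt5e the difference in Treg cultures was -0.84 relative to Th0, -0.92 relative to Th1 and -0.99 relative to Th2, of which the last was called in 19 of 26 alternatives (adjusted p up to 0.109) and the first in 21 of 26. The comparisons of Treg cultures with naive, Th1, Th2 and Th17 cells were chosen after seeing the data. All of these for Treg cultures share the same 6 Treg samples.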

How the results depend on the processing

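The 50 alternatives were 14 other settings (filters, scalings, choice of probe sets, the prior, array weights, blocks, a term for sex, smaller sets of samples) and 36 fits that left out 1 sample. The call of 2 of 25 differences of the KO effect became 4 with the stricter filter, 4 with quantile normalization and 8 with array weights, and 1 to 4 with a sample left out. Calls of the 5 genes between genotypes, 8 of 30, ranged from 6 to 9. Directions that turned all belonged to differences that were not called. With array weights these were Foxp3 Treg minus Th2 effect (-0.10), Ikzf4 Treg minus Th17 effect (-0.040), Nt5e in Th17 (0.10) and Nt5e Th2 minus Th0 effect (-0.13). Nt5e in Th17 was 0.00058 with cyclic loess, and Nt5e in naive cells was -0.028 with the term for sex. The cause was not tested.

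With 1 sample left out, directions turned within these ranges. KO minus WT ran from -0.25 to 0.024 for Ikzf4 in Th2, -0.21 to 0.053 for Ikzf4 in Treg, -0.050 to 0.26 for Nt5e in naive cells, -0.15 to 0.14 for Nt5e in Th17, -0.16 to 0.57 for Ctla4 in naive cells and -0.17 to 0.0023 for Ctla4 in Th2. Differences of the effect ran from -0.33 to 0.61 (Foxp3, Th17 minus Th0), -0.084 to 0.23 (Foxp3, Treg minus Th2), -0.24 to 0.11 (Ikzf4, Th0 minus naive), -0.12 to 0.20 (Ikzf4, Treg minus Th2), -0.10 to 0.16 (Ikzf4, Treg minus Th17), -0.052 to 0.22 (Nt5e, Th1 minus Th0), -0.11 to 0.40 (Nt5e, Th2 minus Th0), -0.22 to 0.073 (Nt5e, Treg minus Th17), -0.24 to 0.052 (Ctla4, Th1 minus Th0) and -0.31 to 0.43 (Ctla4, Treg minus naive).

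With the replicate number as a block, 8 of 30 genotype differences were called, 26 of 30 in WT and 19 of 30 in KO. This block changed no call of the 5 genes. It takes each number as shared by both genotypes and by naive and stimulated samples. Yet Xist was high in naive WT 1 and naive KO 1 and 2 and low in every stimulated sample. Numbers may therefore not link naive with stimulated samples. Between genotypes, deviations of samples with the same number correlated from -0.289 (Treg) to 0.397 (Th2). The unchanged calls thus cannot show that pairing has no effect. A random block of genotype and replicate number, the other form of the pairing, lost the call of the Ikzf4 average over conditions (adjusted p = 0.073) and gained the Ikzf2 Th17 minus Th0 effect (0.0445). Its estimated correlation over all genes was 0.0597, so it gave the pairing of KO Th1 with KO Th0 little weight. Scaling moved the median of all genes by over 0.1 in 3 comparisons: 0.12 for WT Th0 minus naive with array medians aligned, and with cyclic loess -0.11 for WT Treg minus Th17 and 0.12 for KO Th17 minus Th0. Low signal limits Ikzf2, which lay below the threshold of 5.26 in 1 sample, and Foxp3 in Th2 cultures, at 5.34 to 6.12.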
